A study of Homo sapiens with 4 samples.

Results

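The axon guidance ligand and receptor families were examined in a Micro-C comparison of SH-SY5Y cells with and without a stable knockdown of TDP-43. The genes were chosen by symbol as the autosomal protein-coding semaphorins of classes 3 to 7, plexins, neuropilins, ephrins and their Eph receptors, SLIT1 to SLIT3, the ROBO receptors, NTN1, NTN4, DCC and UNC5A to UNC5D. The choice took 65 of the 20037 protein-coding genes of the RefSeq annotation on placed chromosomes, with the read-through gene EFNA4-EFNA3 counted as its own entry. At least 1 listed contact pair overlapped 64 of them, and EPHB6, a kinase-defective Eph receptor, had no listed pair and is not analysed here. The members on the X chromosome, EFNB1, PLXNA3 and PLXNB3, lie outside the rule.

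Micro-C cuts crosslinked chromatin with micrococcal nuclease down to nucleosomes and ligates the ends, so that each sequenced junction counts as 1 contact between 2 places in the genome. SH-SY5Y is an established human neuroblastoma line. The 2 control libraries carry the genotype label control, and the labels describe a control hairpin named shNC. The 2 knockdown libraries carry the genotype label TDP-43 knockdown, from cells transduced with a lentiviral U6 shRNA vector and put under puromycin, at 2 µg/mL during 2 weeks of selection and at 1 µg/mL afterwards. Both arms share the cell line, the vector system and the same puromycin doses and selection time. No label states whether replicate libraries stem from different cultures. Contacts hold no measure of expression, so neither the depth of the knockdown nor the identity of the line could be checked here.

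Axon guidance cues are secreted or membrane-bound ligands that growth cones read through surface receptors. Class 3 semaphorins are secreted and signal through neuropilins paired with plexins, whereas the other vertebrate semaphorin classes are mostly membrane proteins that bind plexins directly. Ephrins and Eph receptors signal between touching cells in both directions. Slits repel axons through Robo receptors, and netrins attract through DCC and repel through UNC5 receptors. Several of these genes are among the longest of the genome, and neuroblastoma derives from the neural crest, whose migrating cells use the same cues. TDP-43 is a nuclear protein that binds nucleic acids at runs of TG or UG.

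The contacts were counted for 89239 pairs of 50 kb bins of hg38, and 779 of these pairs had a bin over a member gene. Of these, 298 joined a bin with itself, 155 joined adjoining bins and 326 joined bins further apart, and 24 pairs were shared by several members. The contacts listed for each library summed to 158400914 and 163147992 in control and to 115168160 and 142424414 in knockdown. Counted gene by gene, the members cover 348 bins, of which 301 had a listed contact within the bin. A bin over several members counts once for each of them. Only 1 bin each was listed for EPHA3, EPHA5 and EPHA7, and ROBO1, ROBO2 and EPHA6 also had several bins without one. A bin of 50 kb is longer than many of these genes, so a value over a short gene also covers its neighbours.

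Contacts over the guidance genes changed in the knockdown about as often as those of the whole table, and which direction was more frequent depended on the scaling. With TMM scaling, which sets the libraries level on the bulk of the pairs, 97 of the 779 pairs were lower in the knockdown (12.5%) and 35 were higher (4.49%) in edgeR's quasi-likelihood test with Benjamini-Hochberg adjustment and a threshold of 0.05. Over all listed pairs 10.5% were lower, 5.76% higher and 16.2% either, so the share of 16.9% for the guidance genes lay near the background. The changes were small: the median absolute log2 fold change of the called pairs was 0.38, from 0.16 to 0.92, against a median of 0.36 for called pairs of the whole table. The median over all 779 pairs was -0.02, beside 0.02 for all pairs. In 235 pairs (30.2%) both knockdown libraries lay below both controls and in 192 (24.6%) above them, against 26.3% and 29.8% of all pairs, and in the other 352 the groups overlapped.

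With other scalings the split of directions was different. Fold changes in these libraries drifted with contact level, and removing that drift with a loess curve per library left 51 lower (6.55%) and 50 higher (6.42%) guidance pairs, against 5.97% and 4.98% of all pairs. Of the called guidance pairs, 26.5% were higher with TMM, 49.5% with the trend removed and 72.0% with library totals alone (47 lower and 121 higher), which moved the median of all pairs to 0.157. With both TMM and the trend removed, 44 of the 779 pairs were lower and 17 were higher. Another 9 were lower with TMM and higher with the trend removed. Over all 89239 pairs these counts were 4566, 2823 and 277. Under all 4 scalings tried, 17 pairs were lower and 16 higher, with no count over all pairs to set beside them. Either direction together gave 13.0% of the guidance pairs with the trend removed, against 11.0% of all pairs. Without the first knockdown library the median log2 fold change of the guidance pairs was -0.0112, against 0.0188 for all pairs. Without the second it was -0.0414, against 0.0187. Fewer pairs were then called at the guidance genes, and also over the whole table.

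The share of called pairs also differed with the distance of the contact. Lower pairs outnumbered higher ones in each distance class with TMM, and with the trend removed higher pairs outnumbered lower ones only within a bin. Of the 298 guidance contacts within a single bin 58 were lower (19.5%) and 21 higher (7.05%) with TMM, against 14.3% and 7.4% of all such contacts. Of the 155 between adjoining bins 20 were lower (12.9%) and 8 higher (5.16%), against 5.64% and 5.8%, and of the 326 further apart 19 were lower (5.83%) and 6 higher (1.84%), against 6.03% and 1.78%. After removal of the trend, 10 of those within a bin fell (3.36%) and 44 rose (14.8%), against 5.12% and 7.89%. Between adjoining bins 15 were then lower (9.68%) and 3 higher (1.94%), against 5.34% and 2.32%, and further apart 26 were lower (7.98%) and 3 higher (0.92%), against 8.64% and 0.582%. The shares of contacts further apart were close to those of the whole table, and the shares at shorter distances lay further from it.

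**Figure D1:**
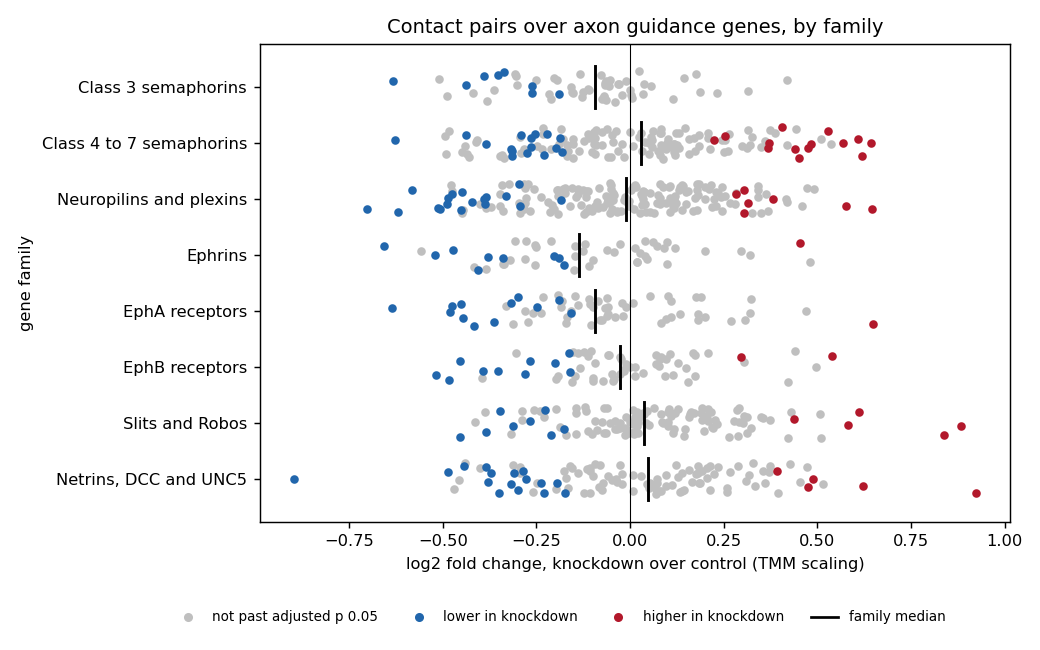
Log2 fold change, knockdown over control with TMM scaling, of every contact pair over an axon guidance gene (points), by family, with pairs past an adjusted p of 0.05 in blue (lower) or red (higher) and a bar at the family median. Class 3 semaphorins have no higher pair, the class 4 to 7 semaphorins have the most higher pairs (14), and the family of netrins, DCC and UNC5 has the largest increase (0.92) and the largest decrease (-0.90).

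Per gene, 40 of the 64 guidance genes overlapped a lower pair (62.5%) and 16 a higher pair (25.0%), against 45.7% and 15.8% of all protein-coding genes with a listed pair. A pair in either direction overlapped 51 guidance genes (79.7%), against 57.4% of all genes, and with the trend removed 46 (71.9%), against 37.7%. A gene counts when any of its pairs is called, so such shares rise with the number of pairs per gene. The genes compared were not matched for that number. Of the guidance genes 32 of 64 were 100 kb or longer, against 3295 of 18703 genes in all. Only lower pairs were found at 35 genes, only higher pairs at 11, and both at 5. EFNA4, EFNA3 and their read-through gene overlap the same pairs, as do ROBO3 and ROBO4. They count as separate genes here and below, so the gene counts are not independent. After removal of the trend, 25 genes had a lower pair (39.1%) and 26 a higher pair (40.6%), against 25.4% and 14.5% of all genes.

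With TMM, the direction differed with the length of the gene and the contact level of its bins. Short members, such as the ephrins EFNA2 to EFNA4 and the semaphorins SEMA3B and SEMA3F, lie in bins rich in contacts: the median control level within a bin was 113 CPM (contact counts scaled to a common library size), from 16 to 212, over the 32 members under 100 kb. Long members such as DCC, ROBO1 and EPHA6 lie in sparse bins, with a median of 6.35 CPM, from 2.01 to 76.7, over the 32 members of 100 kb or more. With TMM, 27 short members had only lower pairs, 1 (SEMA4F) only higher pairs, 1 (UNC5B) both and 3 none, and the median over these genes was a log2 fold change of -0.17. Of the long members 8 had only lower pairs, 10 only higher pairs, 4 both and 10 none, with a median of 0.09. A lower pair was thus found at 28 short members (87.5%) and a higher one at 2 (6.25%), against 47.7% and 11.4% of all protein-coding genes under 100 kb. The long members had a lower pair at 12 genes (37.5%) and a higher one at 14 (43.8%), against 36.4% and 36.7% of all genes of 100 kb or more. Once the trend was removed, 18 short members had a lower pair (56.2%) and 10 a higher one (31.2%), against 25.7% and 11.5% of all short genes. The long members then had 7 (21.9%) and 16 (50.0%), against 23.8% and 28.3% of all long genes.

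Within the richest bins, the guidance genes stood below the rest of the table in their share of lower calls. Of the 66 guidance bins with a mean of 50 CPM or more over the 4 libraries, 49 were lower with TMM (74.2%) and 0 were higher, against 87.7% and 0.0% of the 4411 bins of that level. Once the trend was removed, 24 of the 66 were higher (36.4%) and 5 lower (7.58%), against 15.1% and 20.7% of all such bins. The 24 bins include 7 of the plexin gene PLXNA4 and 5 of PLXNA2, which adjoin each other along their genes and are not independent. The difference between the guidance bins and the other bins was not tested. Of the 171 guidance bins under 10 CPM, 18 were higher (10.5%) and 3 lower with TMM, beside 8.72% higher among all bins of that level.

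**Figure D2:**
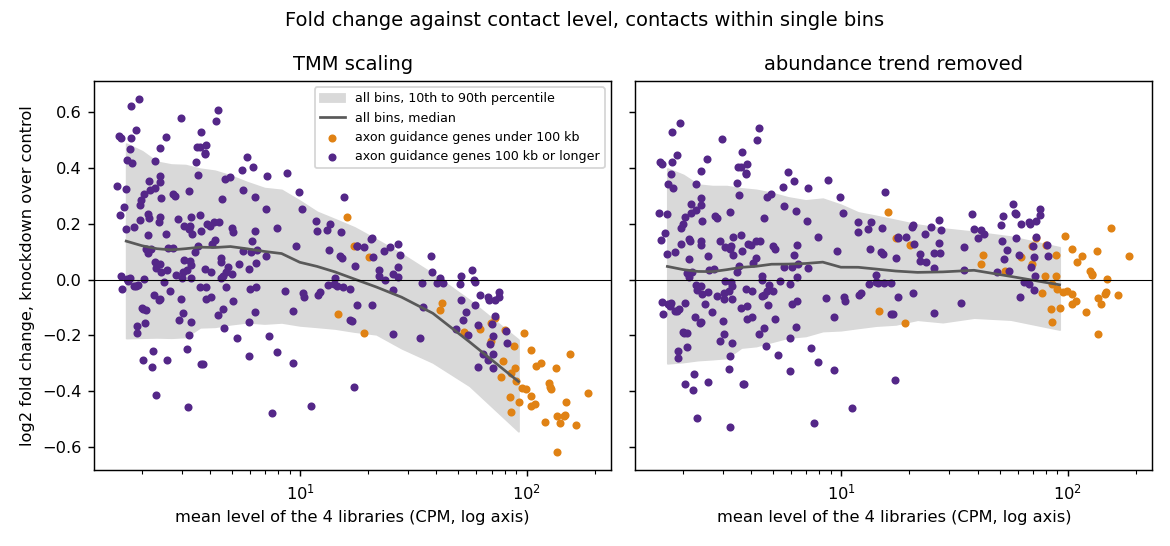
Log2 fold change against the mean level of the 4 libraries (CPM, log axis) for contacts within single bins, with TMM scaling (left) and the abundance trend removed (right); points are bins over axon guidance genes under 100 kb (orange) or of 100 kb or more (purple), the line and band are the median and the 10th to 90th percentile of all bins. With TMM the all-bin median falls below 0 at high levels, where the short genes lie, and with the trend removed many purple points between 50 and 100 CPM lie above the all-bin median.

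The bin that holds a gene's start site was listed for 55 members in 52 distinct bins. With TMM, 27 of the 52 were lower in the knockdown and 0 were higher. Over the start-site bins of all protein-coding genes, counted per gene and not per distinct bin, 37.0% were lower and 2.07% higher. Once the trend was removed, 5 of the 52 were lower and 11 higher, against 10.8% and 6.31% over all genes. The bins lower with both scalings were those of EPHA4, EPHA6, SLIT2, PLXNA1 and PLXND1, and 5 bins were lower with TMM and higher with the trend removed. The 250 bases before the annotated starts of these genes are given to show how unlike their promoters are, in lower case with every CG dinucleotide in capitals, 5′ to 3′ on the strand of the gene. They are RefSeq sequences of GRCh38.p14, for EPHA4 from chr2:221574203-221574452 (minus strand), EPHA6 from chr3:96814344-96814593 (plus), SLIT2 from chr4:20251655-20251904 (plus), PLXNA1 from chr3:126982865-126983114 (plus) and PLXND1 from chr3:129606677-129606926 (minus).
EPHA4: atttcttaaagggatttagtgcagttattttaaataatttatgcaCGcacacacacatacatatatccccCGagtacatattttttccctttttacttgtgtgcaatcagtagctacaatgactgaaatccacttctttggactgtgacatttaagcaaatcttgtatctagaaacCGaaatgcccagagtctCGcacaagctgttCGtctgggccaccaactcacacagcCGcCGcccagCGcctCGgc
EPHA6: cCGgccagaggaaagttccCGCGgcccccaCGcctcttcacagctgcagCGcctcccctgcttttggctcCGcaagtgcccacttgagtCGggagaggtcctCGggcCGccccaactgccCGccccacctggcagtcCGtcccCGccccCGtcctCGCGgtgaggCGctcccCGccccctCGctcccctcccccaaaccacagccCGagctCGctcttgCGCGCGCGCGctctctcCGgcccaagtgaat
SLIT2: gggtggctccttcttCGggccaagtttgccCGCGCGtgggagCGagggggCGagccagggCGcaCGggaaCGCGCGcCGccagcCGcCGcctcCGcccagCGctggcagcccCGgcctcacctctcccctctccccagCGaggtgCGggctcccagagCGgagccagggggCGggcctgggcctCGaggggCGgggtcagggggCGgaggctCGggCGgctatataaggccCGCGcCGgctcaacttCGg
PLXNA1: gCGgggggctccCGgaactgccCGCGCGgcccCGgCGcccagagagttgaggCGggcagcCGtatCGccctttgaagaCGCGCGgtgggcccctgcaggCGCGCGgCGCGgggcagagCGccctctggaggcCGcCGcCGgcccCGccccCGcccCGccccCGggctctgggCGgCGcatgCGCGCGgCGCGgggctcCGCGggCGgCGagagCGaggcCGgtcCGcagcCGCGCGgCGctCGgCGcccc
PLXND1: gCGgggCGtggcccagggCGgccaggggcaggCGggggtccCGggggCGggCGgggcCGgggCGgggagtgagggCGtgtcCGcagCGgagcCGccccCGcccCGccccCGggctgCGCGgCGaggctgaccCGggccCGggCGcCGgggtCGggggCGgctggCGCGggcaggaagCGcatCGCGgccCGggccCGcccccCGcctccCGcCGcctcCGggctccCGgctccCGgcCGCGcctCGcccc
These promoters held 9 CG dinucleotides at EPHA4, 26 at EPHA6, 30 at SLIT2, 46 at PLXNA1 and 41 at PLXND1, where the 56 guidance promoters found in the RefSeq table had a median of 17, from 2 to 46, and all 15842 promoters had a median of 17. The motif TGTGTG, searched on both strands as a short form of the TG runs that TDP-43 binds, was in 8 of the 56 (14.3%) and in 1891 of all promoters (11.9%). Among the printed promoters only that of EPHA4 held it. A match is a description of the letters in this window, and the bin around it is 50 kb long.

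The start-site bins of EPHA4, EPHA6 and SLIT2 fell by the most with the trend removed. EPHA4, a receptor that binds ephrins of both classes, had 13.1 and 12.8 CPM in control and 9.21 and 9.69 in knockdown within its start-site bin (chr2:221550001-221600000). The knockdown libraries both lay below the controls, at -0.45 on the log2 scale (SE 0.09, adjusted p = 2.5e-05), and at -0.46 with the trend removed. EPHA6, another EphA receptor, had 8.96 and 8.62 CPM in control and 6.65 and 5.99 in knockdown, -0.48 on the log2 scale (SE 0.11, adjusted p = 0.00032), and -0.51 with the trend removed. Without the second knockdown library its call was lost, at -0.40 and an adjusted p of 0.0634. SLIT2, a secreted repellent of axons, had 18.2 and 20.9 CPM in control and 15.0 in both knockdown libraries, -0.38 on the log2 scale (SE 0.07, adjusted p = 1.69e-05), and -0.36 with the trend removed.

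The start-site bins of the plexins PLXNA1 and PLXND1 were far richer in contacts. PLXNA1, a co-receptor for class 3 semaphorins, had 136 and 146 CPM in control and 97.6 and 101 in knockdown. Its log2 fold change was -0.51 with TMM (SE 0.06, adjusted p = 3.52e-14) and -0.12 with the trend removed. PLXND1, the receptor of SEMA3E, had 92.4 and 100 CPM in control and 72.1 and 72.0 in knockdown, or -0.42 with TMM (SE 0.06, adjusted p = 1.4e-10) and -0.10 with the trend removed. At these levels most of the TMM difference was shared with other bins of like level.

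Along the long genes, the start-site bin often differed from the rest of the gene. Of the long members, 19 had a listed start-site bin and 4 or more other listed bins. The start-site bin had the highest control level in 9 of them. In 14 its log2 fold change lay below the median of the other bins, with TMM as with the trend removed. The 14 genes were not all the same with both, and some gaps were small, as at ROBO2 with TMM (0.03 and 0.04). No share over other long genes is given here. Among all protein-coding genes 37.0% of start-site bins were lower with TMM, against 14.3% of all contacts within a bin. At ROBO2 and PLXNC1 the start used lies inside the annotated gene. At SLIT2 the start-site bin had -0.38 and the other 7 bins a median of 0.10. At EPHA6 the values were -0.48 and -0.02, and at SEMA6D, a membrane semaphorin, -0.21 (adjusted p = 0.28) and 0.48. DCC, the netrin receptor, had 0.04 at its start-site bin and a median of 0.21 over the others, and ROBO1 -0.03 and 0.01. These differences within genes were not tested.

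**Figure D3:**
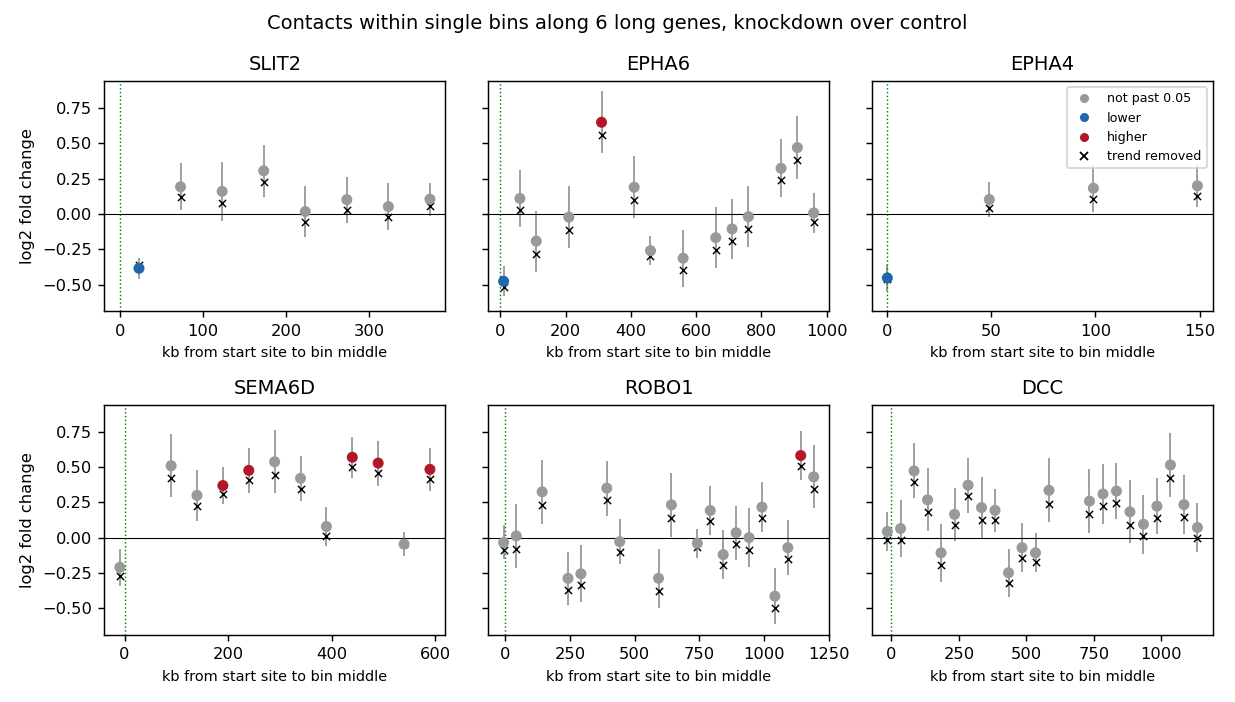
Log2 fold change (points, TMM, with standard error; blue lower and red higher at adjusted p under 0.05) of contacts within each listed bin along SLIT2, EPHA6, EPHA4, SEMA6D, ROBO1 and DCC, against the distance in kb from the start site (dotted line) to the middle of the bin; crosses are the values with the trend removed. In SLIT2, EPHA6 and EPHA4 the bin at the start site is blue, in SEMA6D 5 bins within the gene are red, and in DCC no bin is called.

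The class 3 semaphorins, secreted ligands that steer axons by way of neuropilins and plexins, had 58 pairs, 8 lower and 0 higher. The lower pairs lay at SEMA3B, SEMA3F and SEMA3G, the 3 short genes of the family, all on chromosome 3. SEMA3B had 169 and 174 CPM in control and 127 and 126 in knockdown within the bin chr3:50250001-50300000. The groups lay far apart, with -0.44 on the log2 scale (SE 0.06, adjusted p = 3.62e-11), yet with the trend removed the value was 0.00. SEMA3F, in the bin that starts 100 kb before that one, had 139 and 152 CPM in control and 109 and 113 in knockdown, or -0.39 (SE 0.06, adjusted p = 3.61e-09), and 0.02 with the trend removed. At SEMA3G a contact over 400 kb fell from 2.35 and 2.07 CPM to 1.49 and 1.37 (log2 fold change -0.63, SE 0.22, adjusted p = 0.0342), and was at -0.72 with the trend removed. That call was lost with library totals alone (-0.50, adjusted p = 0.0869).

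The long class 3 genes SEMA3A, SEMA3C, SEMA3D and SEMA3E, which lie on chromosome 7, had no called pair with either scaling. SEMA3A, the classical growth cone collapsing ligand, had 10 listed bins with control levels from 1.90 to 5.22 CPM and log2 fold changes from -0.30 to 0.11. The levels of the control and knockdown libraries overlapped in 8 of these 10 bins and were lower in the knockdown in 2. At such levels a change of the size seen at the short genes could go uncalled.

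The semaphorins of classes 4 to 7, mostly membrane-bound ligands, had 143 pairs, with 16 lower and 14 higher. Of the 13 genes, 8 had only lower pairs, 4 only higher pairs and 1 (SEMA6C) none with TMM, and 2, 8 and 2 with the trend removed, SEMA7A then having both. The higher pairs were in SEMA4F, SEMA5A, SEMA6A and SEMA6D. SEMA5A, which carries thrombospondin repeats, rose within a bin of its body from 3.42 and 3.43 CPM in control to 5.09 and 5.36 in knockdown. Its log2 fold change was 0.61 (SE 0.14, adjusted p = 0.000587), and 0.54 with the trend removed, and the call was lost without the second knockdown library (adjusted p = 0.0566). All 11 of its bins had a log2 fold change above 0 with TMM, and in 10 of the 11 both knockdown libraries lay above both controls, as in 31.4% of all bins. The median of all bins under 10 CPM was also above 0 with TMM, at 0.11.

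SEMA6D had 12 listed bins, of which 5 rose with TMM and 2 with the trend removed. Its largest called bin had 3.62 and 3.25 CPM in control and 4.83 and 5.34 in knockdown, 0.57 on the log2 scale (SE 0.14, adjusted p = 0.00178), and 0.50 with the trend removed. SEMA4F rose between adjoining bins from 1.29 and 1.41 CPM to 2.20 and 2.02 (0.64, SE 0.22, adjusted p = 0.0326), and its call was lost with the trend removed (0.55, adjusted p = 0.0982). SEMA7A, a ligand anchored by a glycolipid, had a contact over 350 kb at 2.15 and 2.57 CPM in control and 1.48 and 1.57 in knockdown (-0.63, SE 0.22, adjusted p = 0.0298). That contact had -0.72 with the trend removed and lost its call with library totals alone (adjusted p = 0.0806). SEMA4A, known for its roles in immune cells and the retina, fell within its start-site bin with TMM, from 163 and 175 CPM to 140 and 141 (-0.26, adjusted p = 9.88e-05), and was higher with the trend removed (0.19, adjusted p = 8.77e-07), and its call with TMM was lost without either knockdown library (adjusted p = 0.146 and 0.0916). Of the short class 6 genes, SEMA6B fell from 102 and 109 CPM to 75.8 and 80.6 within the bin chr19:4500001-4550000 (-0.44, SE 0.06, adjusted p = 3.27e-11), and was at -0.10 with the trend removed (adjusted p = 0.0434).

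The neuropilins and plexins, the receptors of semaphorins, had 180 pairs, with 18 lower and 7 higher. The plexins split by length: the short genes PLXNA1, PLXNB1, PLXNB2 and PLXND1 had only lower pairs and the long genes PLXNA4 and PLXNC1 only higher ones, with both at PLXNA2. PLXNB2, a receptor of class 4 semaphorins, had the largest decrease. Its contact over 250 kb near the end of chromosome 22 had 3.77 and 4.24 CPM in control and 2.36 and 2.56 in knockdown, -0.70 on the log2 scale (SE 0.17, adjusted p = 0.000807), and -0.78 with the trend removed. That call was lost without the first knockdown library (-0.64, adjusted p = 0.0643). Within the bin chr22:50250001-50300000 it fell from 153 and 178 CPM to 106 and 109, or a log2 fold change of -0.62 with TMM (adjusted p = 3.88e-18) and -0.20 with the trend removed. Of its 19 pairs 8 were lower with TMM and 7 with the trend removed.

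PLXNA4, a co-receptor for class 3 semaphorins with a body of 525.3 kb, showed how the scaling set the call. With TMM 0 of its 11 listed bins passed the threshold, with log2 fold changes from -0.13 to 0.12, and with the trend removed 10 of the 11 were higher, from 0.11 to 0.27. Its bins had control levels from 23.9 to 75.4 CPM. PLXNA2 behaved alike, with 1 of 5 bins lower with TMM and all 5 higher with the trend removed. The largest called pair of PLXNA4, over 100 kb, had 1.93 and 2.13 CPM in control and 2.74 and 3.30 in knockdown (0.58, SE 0.19, adjusted p = 0.0238), and was not called once the trend was removed (0.50, adjusted p = 0.0682). NRP1, the neuropilin that binds SEMA3A, rose between adjoining bins from 1.39 and 1.38 CPM to 2.12 and 2.20. The log2 fold change of 0.65 (SE 0.22, adjusted p = 0.0304) lost its call with the trend removed (0.56, adjusted p = 0.0917), without any 1 of the 4 libraries and with DESeq2 (adjusted p = 0.051). NRP2 had no called pair with TMM, and 2 of its 3 bins were higher with the trend removed.

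The ephrins, ligands held at the membrane by a glycolipid (EFNA) or a transmembrane segment (EFNB), had 50 pairs, with 9 lower and 1 higher. EFNA2 had 5 lower pairs of 13, and 4 with the trend removed. Its contact over 200 kb near the end of chromosome 19 fell from 2.52 and 2.48 CPM to 1.49 and 1.67, -0.66 on the log2 scale (SE 0.21, adjusted p = 0.0181), and -0.74 with the trend removed, but it lost its call with library totals alone (adjusted p = 0.0557). Within the bin chr19:1300001-1350000 the level fell from 96.3 and 102 CPM to 71.5 and 71.7 (-0.47, adjusted p = 8.16e-13), and was at -0.15 with the trend removed. That bin holds only the 3′ edge of the gene, which ends at chr19:1301431. EFNA4, EFNA3 and their read-through gene share the bin chr1:155050001-155100000, the richest of the guidance genes. It had 203 and 221 CPM in control and 159 and 161 in knockdown, lower with TMM (-0.41, SE 0.06, adjusted p = 1.36e-09) and higher with the trend removed (0.09, adjusted p = 0.0337). EFNA5, the only long ephrin gene here, rose within a bin of its body from 3.28 and 3.13 CPM to 5.06 and 3.73 (0.45, SE 0.15, adjusted p = 0.0292), and the call was lost with the trend removed (adjusted p = 0.087). EFNB2 had no called pair.

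The EphA receptors, tyrosine kinases that mostly bind the EFNA ligands, had 62 pairs, 12 lower and 1 higher. The higher one lay within EPHA6, in a bin at 1.33 and 1.69 CPM in control and 2.74 and 2.00 in knockdown (0.65, SE 0.22, adjusted p = 0.0258), and was not called once the trend was removed (adjusted p = 0.0778). EPHA1 fell between adjoining bins (chr7:143350001-143450000) from 10.9 and 10.7 CPM to 7.52 and 7.95. The change was -0.48 on the log2 scale (SE 0.10, adjusted p = 4.2e-05) and -0.50 with the trend removed. EPHA2 had 5 lower pairs of 12, and both knockdown libraries lay below both controls in 10 of the 12, beside 10.5% lower calls and 26.3% without overlap over all pairs. Its largest called change, over 250 kb, was from 2.09 and 1.75 CPM to 1.09 and 1.37 (-0.64, SE 0.23, adjusted p = 0.0388), -0.73 with the trend removed, and was not called by DESeq2 (adjusted p = 0.0809) or with library totals alone (adjusted p = 0.0949). EPHA3, EPHA5 and EPHA7 had a single listed bin each, none of them called.

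The EphB receptors, which bind the EFNB ligands, had 63 pairs, with 10 lower and 2 higher. EPHB3 fell within the bin chr3:184550001-184600000 from 166 and 179 CPM to 122 and 125 (-0.48, SE 0.06, adjusted p = 6.01e-13), with -0.04 when the trend was removed. EPHB4, a receptor of EFNB2 in vessels, fell in contacts over 150 kb from 5.51 and 5.41 CPM to 3.63 and 4.0 (-0.52, SE 0.14, adjusted p = 0.00313), and was at -0.58 with the trend removed. All 8 pairs of EPHB4 had both knockdown libraries below both controls, as had 26.3% of all pairs. The call of the largest of them was lost without the first knockdown library (adjusted p = 0.138). At EPHB1, the longest gene of the family, a contact of adjoining bins (chr3:134700001-134800000) rose from 1.59 and 2.20 CPM to 2.93 and 2.58 (0.54, SE 0.20, adjusted p = 0.0479). It was not called once the trend was removed (adjusted p = 0.122). The gene starts at chr3:134795260, so only its edge lay in the contact. Within its start-site bin the log2 fold change was 0.0003 (adjusted p = 0.998). EPHB2, also over 100 kb, had 4 lower and 0 higher of 25 pairs with TMM, and 0 lower and 2 higher with the trend removed.

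The Slits and Robos had 117 pairs, 8 lower and 5 higher. SLIT3 had the largest increase of the family, over 200 kb, from 1.27 and 0.967 CPM in control to 1.86 and 2.26 in knockdown. Its log2 fold change was 0.88 (SE 0.23, adjusted p = 0.0022) and 0.79 with the trend removed, and the call was lost without the second knockdown library (0.73, adjusted p = 0.111). Of the 37 pairs of SLIT3, 4 were higher and 2 lower with TMM, and 3 higher and 0 lower with the trend removed. ROBO1, a Slit receptor, rose in 1 of its 19 bins, at its 3′ end, from 2.18 and 2.59 CPM to 3.85 and 3.29 (0.58, SE 0.18, adjusted p = 0.0116), with 0.50 when the trend was removed. ROBO2, its close relative, fell in 1 of 28 bins from 3.76 and 3.69 CPM to 2.27 and 3.15 (-0.45, SE 0.17, adjusted p = 0.0489), with -0.53 when the trend was removed. The call at ROBO1 was lost without the first control library (adjusted p = 0.0766) or the first knockdown library (adjusted p = 0.31), and that at ROBO2 with DESeq2 (adjusted p = 0.102) and with library totals alone (adjusted p = 0.153). ROBO3 and ROBO4 share a single bin of 83.6 and 89.2 CPM in control and 68.6 and 67.3 in knockdown, lower with TMM (-0.35, adjusted p = 9.74e-08) and at -0.05 with the trend removed.

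The netrins and their receptors had 108 pairs, with 16 lower and 5 higher, and held the largest changes in either direction. UNC5C, a repulsive netrin receptor, rose between adjoining bins at the 3′ end of the gene (chr4:95150001-95250000) from 1.01 and 1.44 CPM to 2.30 and 2.36. Its log2 fold change was 0.92 (SE 0.23, adjusted p = 0.00103) and 0.83 with the trend removed. UNC5B fell in a contact over 500 kb from 2.19 and 2.41 CPM to 1.12 and 1.34, -0.90 on the log2 scale (SE 0.22, adjusted p = 0.00147), and -0.99 with the trend removed, and the call was lost without the first knockdown library (adjusted p = 0.104). That contact joined the bins chr10:71300001-71350000 and chr10:71800001-71850000, and the annotated gene ends at chr10:71302864. Only the edge of the gene thus lay in the contact. UNC5B had 9 lower pairs of 29 and 1 higher, and 6 lower and 0 higher with the trend removed. UNC5D rose within a bin from 1.07 and 1.75 CPM to 2.02 and 2.31 (0.62, SE 0.23, adjusted p = 0.0428), and was not called once the trend was removed (adjusted p = 0.119).

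NTN1, a secreted netrin, fell between adjoining bins from 7.55 and 6.38 CPM to 5.16 and 5.54 (-0.38, SE 0.12, adjusted p = 0.0158), and was at -0.43 with the trend removed, and lost its call with library totals alone (adjusted p = 0.127). DCC, whose body of 1196 kb covers 22 listed bins of 1.31 to 4.76 CPM, had no called bin. Of those 22 bins, 18 had a log2 fold change above 0, with a median of 0.20 and a range from -0.25 to 0.51, and in 8 both knockdown libraries lay above both controls and in 2 below them, against 31.4% and 28.5% of all bins. With the trend removed the median was 0.13. All bins under 10 CPM had medians of 0.11 with TMM and 0.05 with the trend removed.

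**Figure D4:**
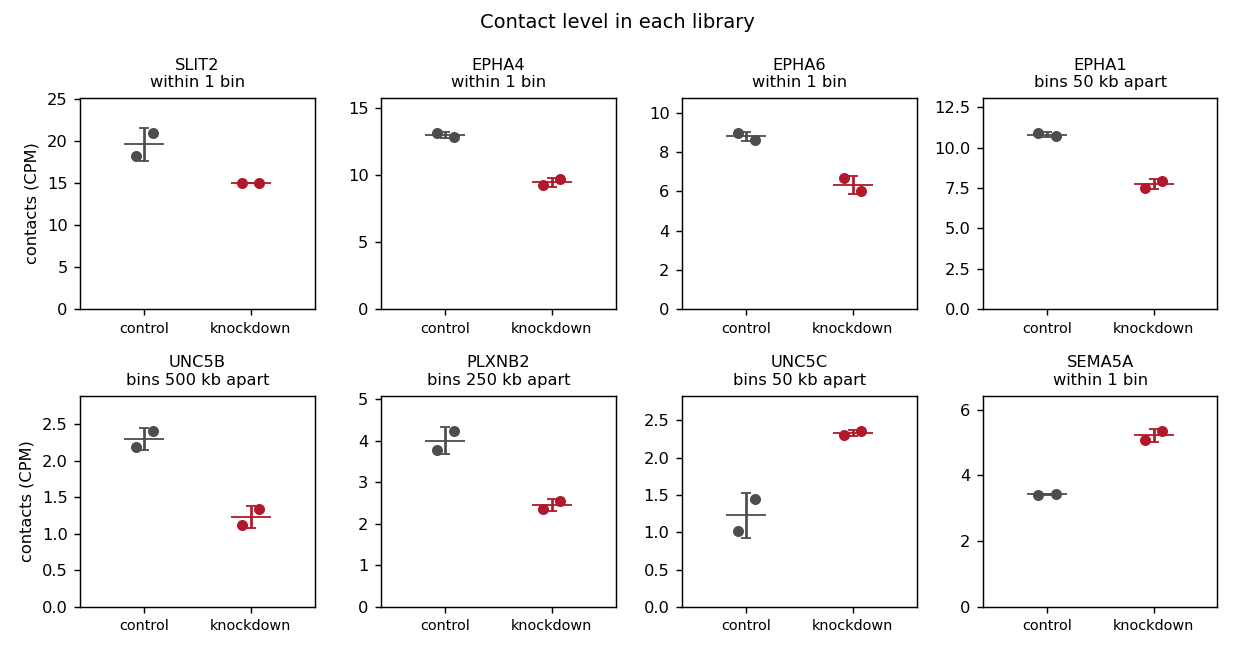
Contact level (CPM, TMM-scaled) in each library (points) for 8 pairs over axon guidance genes, with the mean (line) and SD (bar) of the 2 libraries of each group. The knockdown points lie below the control points at SLIT2, EPHA4, EPHA6, EPHA1, UNC5B and PLXNB2 and above them at UNC5C and SEMA5A, with no overlap between groups. The pairs of EPHA1, UNC5B, PLXNB2, UNC5C and SEMA5A were chosen among called pairs without overlap, so its absence there follows from the choice. The start-site bins of SLIT2, EPHA4 and EPHA6 were chosen as lower with both scalings.

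Across all 12 other settings tried, 10 guidance pairs kept their direction and their call, which is 7.58% of the called guidance pairs, against 15.0% of the called pairs of the whole table. They were the lower pairs already described at EPHA4, SLIT2, EPHA1, PLXNA1, PLXND1 and SEMA6B, those within a single bin at EFNA2 and PLXNB2, a contact of adjoining bins at EFNA2 (13.5 and 15.6 CPM in control, 11.4 and 11.1 in knockdown, log2 fold change -0.38), and the higher pair of UNC5C. Both EFNA2 pairs use the bin chr19:1300001-1350000, which holds only the 3′ edge of that gene. The calls of single low contacts were less sure. Leaving out a knockdown library, which leaves 1 library in that group, lowered the number of called pairs over the whole table as well. Losses of calls in that setting were thus not particular to the pairs listed here. Without the first control library more pairs were called over the whole table. Of the 26 largest pairs given above in full for the leading genes of each family, 17 missed the threshold without the first knockdown library, with adjusted p from 0.0643 to 0.666, at EFNA2, EFNA5, EPHA2, EPHA6, EPHB1, EPHB4, NRP1, NTN1, PLXNA4, PLXNB2, ROBO1, ROBO2, SEMA3G, SEMA4F, SEMA7A, UNC5B and UNC5D. Without the second knockdown library 12 did (0.0566 to 0.385), at EFNA2, EPHA2, EPHB1, NRP1, NTN1, PLXNA4, SEMA3G, SEMA4F, SEMA5A, SEMA7A, SLIT3 and UNC5D. Without the first control library 11 did (0.0557 to 0.418), at EPHA2, EPHA6, EPHB1, NRP1, NTN1, PLXNA4, ROBO1, ROBO2, SEMA3G, SEMA4F and UNC5D, and without the second 4 did (0.0608 to 0.17), at EFNA5, NRP1, ROBO2 and SEMA7A.

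Some of the most stable pairs lie near chromosome ends. The 4 members within 5 Mb of an end, PLXNB2, EFNA2, UNC5A and SEMA6B, had 20 of their 68 pairs lower (29.4%) and 0 higher with TMM, and 14 lower (20.6%) and 1 higher (1.47%) with the trend removed. The pairs of all protein-coding genes that near an end had like shares, with 30.9% lower and 0.771% higher with TMM and 26.4% and 0.721% with the trend removed. All 4 members are also short genes in rich bins, so position and level cannot be told apart in them.

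Other genes of guidance pathways, such as co-receptors, adhesion partners and cytoplasmic effectors, gave a like picture. Of a list of 86 such genes 44 had only lower pairs, 18 only higher pairs, 12 both and 12 none with TMM, so that 86.0% had a called pair beside 57.4% of all protein-coding genes. With the trend removed the counts were 26, 22, 7 and 31, so that 38.4% had a lower pair and 33.7% a higher one, beside 25.4% and 14.5% of all genes. These shares were also not matched for the number of pairs per gene. The largest changes were increases at CHN2, a chimaerin that turns off Rac (0.909 and 1.12 CPM in control, 2.27 and 1.95 in knockdown, log2 fold change 1.05, SE 0.23, adjusted p = 0.000179), and at KALRN (0.88, adjusted p = 0.000587). SRGAP3, a Slit-Robo GTPase activating protein, rose by 0.83 on the log2 scale (adjusted p = 0.00455). SHH, a morphogen that also guides commissural axons, fell by 0.87 on the log2 scale (adjusted p = 0.00258) in a contact over 450 kb. CHN2 had 11 higher pairs of 23, and 10 with the trend removed, and KALRN 8 of 27, and 6 with the trend removed. The calls were lost without the first knockdown library at SHH (adjusted p = 0.152) and SRGAP3 (0.0693), without the second at KALRN (0.0666) and SRGAP3 (0.0561), and without the first control library at SRGAP3 (0.0872).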

How the data were processed

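Micro-C contacts of SH-SY5Y cells were compared between 2 control and 2 knockdown libraries. HiC-Pro and hg38 are named, without versions, per the submitters' processing notes. The deposited table holds the authors' raw contact counts per library for 89239 pairs of 50 kb bins, and, per the file headers, a fold change and mean abundance on the log2 scale with a p-value and its adjusted value. The authors' F statistic, a score in that table, was not used. The list starts at a log2 abundance of -0.01, so it holds the more abundant pairs and its totals are not the depth, a value not given in the sources used here. Each title closes with the word merged, without saying what was combined. Since no label speaks of separate cultures, a p-value here reflects the spread among these libraries alone, which may be technical.

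Counts of all pairs were fitted together with edgeR 4.0.16 (limma 3.58.1, R 4.3.3), glmQLFit and glmQLFTest, after TMM scaling (factors 0.966 and 0.944 for control, 1.05 and 1.04 for knockdown), with Benjamini-Hochberg adjustment of the p-values over all pairs and 0.05 as the threshold. No pair was dropped by filterByExpr (0 removed). Levels are CPM on TMM-scaled library sizes, and fold changes are knockdown over control on the log2 scale, n = 2 libraries per group. Removal of the trend with abundance used loess offsets, and gave fold changes within 0.00237 of the authors' deposited ones. Other alternatives were DESeq2 1.42.0, library totals alone, TMM within distance classes, a replicate block, omission of the filter and of each library in turn, a threshold of 0.01, the authors' table and narrower overlaps of pair and gene.

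A pair belonged to a gene when either bin overlapped its body in the RefSeq annotation of GRCh38.p14. Starts and promoters came from the RefSeq promoter table, which matched 56 members. The members, the lists and the level and length classes were chosen with earlier results of these data known. Named pairs are, per gene, the called pair with groups that do not overlap and the largest fold change, and the start-site bin, with full values for 3 genes per family and always for DCC, ROBO1, ROBO2, SLIT2, NRP1, SEMA3A and NTN1, and 4 genes of the pathway list. The fuller values of SEMA6D, SEMA6B and SEMA4A, the bin within EFNA2 and within PLXNB2, the pairs stable under all settings, and the genes drawn along their bodies were chosen after their values were seen.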

Additional observations from a re-analysis of the deposited data

How the results depend on the processing

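After removal of the trend, as in the authors' own fold changes, the pairs lower numbered 51, the genes with a lower pair 25, the genes with a higher pair 26, and 15 of the 26 named pairs stayed called. In both, log2 fold changes below 0 with TMM turned to 0.09 at the named pair of EFNA4, 0.02 at SEMA3F and 0.00 at SEMA3B. Those of start-site bins turned to 0.09 at EPHA8, EPHB2 and SLIT1, 0.15 at SEMA6C, 0.16 at EFNA1, 0.19 at SEMA4A and 0.25 at PLXNA2. They turned to 0.06 at SEMA4G, 0.11 at SEMA7A, 0.01 at SEMA4B, 0.02 at SEMA4C, 0.10 at UNC5A and 0.14 at SEMA4D. The start-site bins of SEMA6C, PLXNA2 and SEMA4D were not called with TMM. The loess fit takes out any change that follows contact level. With library totals alone 47 pairs were lower, 121 higher and 35 genes had a higher pair. DESeq2 gave 15 higher pairs and kept 17 of the named pairs. A threshold of 0.01 left 62 lower and 12 higher pairs, 9 genes with a higher pair and 12 named pairs. Leaving out 1 library gave from 37 to 126 lower and from 7 to 38 higher pairs, from 26 to 44 genes with a lower and from 5 to 21 with a higher pair, from 41 to 74 pathway genes with a called pair and from 9 to 22 named pairs. Over the whole table, too, leaving out a knockdown library lowered the number of called pairs. Only pairs at a start site gave 51 lower and 2 higher pairs, 2 genes with a higher pair and 40 pathway genes. Only contacts within a bin gave 58 lower and 21 higher pairs. In both cases fewer pairs count. The labels give both groups the replicate numbers 1 and 2. Deviations of same-numbered libraries from their group means correlated at 0.0193. With 2 libraries per group this value cannot show whether the numbers pair the libraries. With the replicate block 104 pairs were lower and 38 higher, and 26 named pairs stayed called. TMM within distance classes gave 99 and 39, and no filter changed nothing. The number of contacts limits bins of 1 to 5 CPM most.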
